A study of Mus musculus with 6 samples.

Results

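Chemokine ligands that myeloid cells release during inflammation were followed in microglia of mice whose mothers were sodium restricted early in gestation. The group holds 10 genes, taken by name, of the 26789 genes in the table: the CC ligands Ccl2, Ccl3, Ccl4, Ccl6, Ccl7, Ccl9 and Ccl12, and the CXC ligands Cxcl2, Cxcl10 and Cxcl16. No measured value enters the rule. None of the 10 was listed at 0 in any of the 6 libraries, and all 10 passed the filter for testing, which asked for 10 or more normalized counts on average.

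The comparison was between control mice, from C57Bl/6 dams that ate standard chow throughout, and E3–E12 diet mice, whose dams ate a sodium-restricted chow from embryonic day 3 to 12 and standard chow afterwards. Each group had 3 libraries. Per the study's methods, a library was made from the rostral nucleus of the solitary tract (NST), the brainstem relay for taste, pooled from 6 littermates of both sexes at postnatal day 15, so a library stands for 1 litter. The methods describe dissociation with an enzyme at 37 °C and magnetic selection of CD11b+ cells, whereas the labels name laser microdissection, and which was used for these libraries was not settled here. CD11b (Itgam) is carried by microglia and also by border macrophages, monocytes and neutrophils, so the isolation does not by itself separate these cells. Because each value is from a bulk sample, fewer cells that express a chemokine and less of its RNA per cell cannot be told apart.

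Chemokines are small secreted proteins that bind G protein-coupled receptors and draw leukocytes along a gradient. CC and CXC ligands are named for the spacing of their first cysteines. Microglia, the resident macrophages of the brain, hold little chemokine RNA at rest and make much of it within hours of signalling through NF-kB, type I interferon or AP-1, and the same genes are known to be induced when cells are warmed and dissociated. Ccl2, Ccl7 and Ccl12 act on CCR2, which brings in monocytes. Ccl3 and its relative Ccl4 draw monocytes and T cells, and Ccl3 shares the receptor CCR1 with Ccl6 and Ccl9. Cxcl2 acts on CXCR2 of neutrophils, Cxcl10 on CXCR3 of T and NK cells, and Cxcl16, which is made as a membrane protein and shed by proteases, on CXCR6.

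The libraries differed in more than diet. Totals of normalized counts ran from 9407141 to 17204618. The highest total was that of control replicate 2, in which 10640 genes were listed at 0, against 3459 to 7135 in the other libraries. Transcripts of the mitochondrial genome made up 15.5, 6.69 and 18.5% of normalized counts in control replicates 1 to 3. In E3–E12 diet replicates 1 to 3 they made up 13.8, 10.2 and 23.0%. Replicate 3 was thus highest in each group, and the bearing of this share on the members was not tested. The 12 microglia markers, led by Csf1r and Cx3cr1, were present in every library, with summed levels of 106118, 529822 and 260281 normalized counts in control replicates 1 to 3 and 104709, 247029 and 326199 in E3–E12 diet replicates 1 to 3. That sum was lowest in replicate 1 of both groups. The 8 oligodendrocyte markers summed to 42344, 16231 and 4696 in control mice and to 17452, 22099 and 5161 in the libraries of E3–E12 diet mice, and the 6 choroid plexus markers to between 52.4 and 40482. RNA of other cells was therefore present in unequal amounts. Control replicate 2 also had the highest sums of neutrophil markers (3632, against 482 to 884 elsewhere) and of T and NK cell markers (2021, against 143 to 697). Of the 6 T and NK cell markers listed, 4 were in the table and 2 passed the filter. The border macrophage markers (8 of 8 in the table) summed to 6056 to 21340 in control mice and 5700 to 9913 after the diet, and the monocyte markers (5 of 6) to 498 to 7557 and 254 to 2913, with Plac8 at 0 in 2 libraries. Sums over the libraries ran from 4550 to 15072 for 8 endothelial markers, 1652 to 16986 for 8 mural and fibroblast markers, 1738 to 9725 for 7 astrocyte markers and 754 to 1828 for 8 neuron markers. B cell, mast cell and erythroid markers summed to at most 219 in any library. Each member is given below with its value without control replicate 2 where that moved it by more than 1.5 times or turned its direction.

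The genes lie in clusters. The CC ligands sit together on chromosome 11 of GRCm38: Ccl2 (ENSMUSG00000035385) at chr11:82035571-82037453, Ccl7 (ENSMUSG00000035373) at chr11:82045712-82047525 and Ccl12 (ENSMUSG00000035352) at chr11:82101845-82103400, all on the plus strand, and further along Ccl9 (ENSMUSG00000019122) at chr11:83572919-83578636, Ccl6 (ENSMUSG00000018927) at chr11:83587882-83593087 and Ccl3 (ENSMUSG00000000982) at chr11:83647844-83649355 on the minus strand and Ccl4 (ENSMUSG00000018930) at chr11:83662584-83664683 on the plus strand. Cxcl16 (ENSMUSG00000018920) is apart from them at chr11:70453983-70459984, on the minus strand. Cxcl2 (ENSMUSG00000058427) is at chr5:90903871-90905938 on the plus strand and Cxcl10 (ENSMUSG00000034855) at chr5:92346638-92348889 on the minus strand. All 10 are protein-coding genes. The spans are those of GENCODE release M21.

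Upstream sequences are shown for 4 members, since the members differed from each other in which libraries were high. Cxcl10 and Cxcl2 are shown because their upstream sequences held matches to motifs of inducible transcription. Ccl3 and Ccl12 are shown because they shared their highest pair of libraries, replicate 3 of each group. Ccl2 and Ccl6 also shared theirs, control replicates 2 and 3, but Ccl2 was not in the promoter table. The sequences are from RefSeq (GRCm38.p6), whose promoter table held 6 of the 10 members. Each is 200 bases long, running 5′ to 3′ from 250 to 51 bases before the RefSeq start of the gene (chr5:92348940-92349139, minus strand, for Cxcl10, chr5:90903649-90903848, plus strand, for Cxcl2, chr11:83649429-83649628, minus strand, for Ccl3, and chr11:82101595-82101794, plus strand, for Ccl12). Capitals mark matches to an NF-kB motif (GGGANNTTCC), an interferon-stimulated response element (ISRE, GAAANNGAAA) or an AP-1 motif (TGANTCA), searched on both strands.
Cxcl10: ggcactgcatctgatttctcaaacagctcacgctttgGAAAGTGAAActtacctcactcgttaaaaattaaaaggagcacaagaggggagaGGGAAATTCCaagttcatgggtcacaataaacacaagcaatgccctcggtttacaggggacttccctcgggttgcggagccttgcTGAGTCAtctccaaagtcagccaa
Cxcl2: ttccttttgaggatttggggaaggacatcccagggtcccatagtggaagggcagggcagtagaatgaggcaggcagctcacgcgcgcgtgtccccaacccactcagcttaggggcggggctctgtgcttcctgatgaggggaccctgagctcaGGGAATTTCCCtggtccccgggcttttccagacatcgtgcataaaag
Ccl3: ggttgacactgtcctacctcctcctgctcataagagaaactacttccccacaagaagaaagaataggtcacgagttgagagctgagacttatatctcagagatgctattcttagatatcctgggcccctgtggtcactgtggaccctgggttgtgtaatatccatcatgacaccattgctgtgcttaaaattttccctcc
Ccl12: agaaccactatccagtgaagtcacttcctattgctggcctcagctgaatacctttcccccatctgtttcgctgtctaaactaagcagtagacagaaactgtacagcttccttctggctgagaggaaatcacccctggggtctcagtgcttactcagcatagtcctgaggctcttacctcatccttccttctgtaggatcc

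The Cxcl10 sequence held all 3 motifs. Its ISRE match lay 213 to 204 bases before the start, its NF-kB match 159 to 150 bases before and its AP-1 match 74 to 68 bases before. In Cxcl2 the capitals are 2 overlapping NF-kB matches, from 97 to 87 bases before the start. Ccl3 and Ccl12 held none of the 3 in this window. Of the members in the promoter table that are not shown, Ccl6 held none and Ccl9 held an AP-1 match 53 to 47 bases before its start. Over the 250 bases before the start of all 32851 promoters in the table, 1.21% held the NF-kB motif, 2.98% the ISRE and 6.75% the AP-1 motif. A match is a description of the sequence and was not tied to binding in these cells.

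Levels of different genes were compared per kilobase of exon, as normalized counts divided by the length of the union of exons. Ccl3 was the most abundant member, with a median over the 6 libraries of 1675 normalized counts per kb (range 1345 to 4736). Ccl12 came next with a median of 682 (333 to 2080), and then Ccl4 with 574 (150.0 to 1248), Ccl2 with 564 (386 to 1298), Cxcl16 with 378 (217 to 755) and Ccl9 with 349 (154 to 974). The other 4 were lower, with medians of 116 for Ccl6, 114 for Cxcl2, 86.7 for Cxcl10 and 72.4 for Ccl7. The ranges of all neighbours in this order overlapped. Ccl3 was above Ccl12 in 6 of 6 libraries and Ccl9 above Ccl6 in 6 of 6, while in the other neighbouring pairs the order held in 2 to 5 of the 6 libraries. With the length of the longest transcript in place of the union of exons, Ccl2 moved above Ccl4. The order also differed between the groups. Ccl3 was first in both, but by control medians Ccl2 (852), Ccl9 (442), Ccl4 (436) and Ccl12 (405) followed, whereas by E3–E12 diet medians Ccl12 (959.7), Ccl4 (713), Ccl2 (521) and Cxcl16 (496) did. Whether the deposited values carry a factor that differs by gene was not tested, nor was the effect of such a factor on levels compared between genes.

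**Figure D1:**
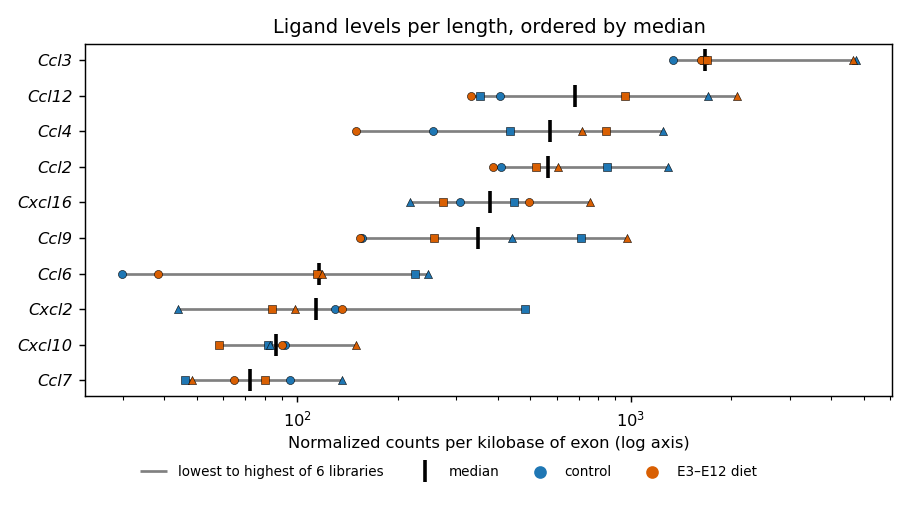
Level of each member per kilobase of exon in the 6 libraries, in normalized counts per kb on a log axis, with points for libraries (coloured by group, shaped by replicate), a grey line for the range and a black bar at the median. Ccl3 had the highest median (1675) and Ccl7 the lowest (72.4), and neighbouring ranges overlapped.

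No member was called between diets. Expression was compared on the log2 scale of normalized counts plus 1 with limma, fitted to all 18007 genes that passed the filter, and the threshold was the study's, an adjusted p under 0.1 (Benjamini-Hochberg). Of all genes tested, 0% passed it, and the smallest adjusted p of any gene was 0.225. The study itself, with DESeq2 at this threshold, listed genes in both directions, among them Tnf and Nfkbia as higher and Zfp36 as lower. None of the 10 members is in its lists. The tests differ, so the absence of calls here does not speak against those lists. At an unadjusted p under 0.05, 1.82% of all genes were found, 171 of them higher and 156 lower after the maternal diet, and 0 of the 10 members. The control and E3–E12 diet values did not overlap in 5.90% of all genes and overlapped in 10 of 10 members. The log2 difference, E3–E12 diet minus control, was above 0 in 4 members and below 0 in 6, with a median of -0.16 over the members and 0.09 over all genes tested. The split followed the scaling, at 5 above and 5 below with counts scaled to library totals and 6 above and 4 below with counts scaled to the microglia markers. The standard error of the difference had a median of 0.86 over the members and 0.85 over all genes. With 3 libraries against 3, an exact permutation test of 1 gene cannot give a p below 0.1.

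**Figure D2:**
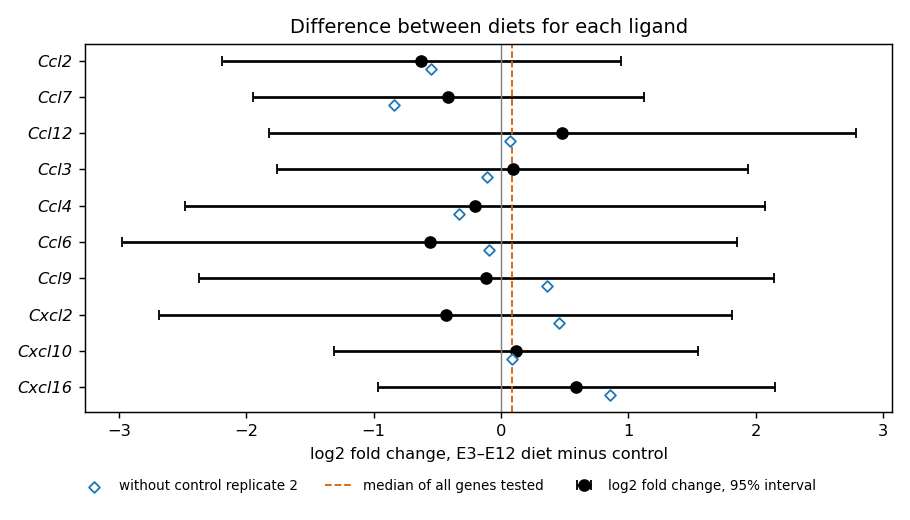
Log2 difference between E3–E12 diet and control mice (E3–E12 diet minus control, limma) for each member, with bars for the 95% confidence interval, open diamonds for the fit without control replicate 2 and a dashed line at the median of all genes (0.09). Every interval crosses 0, from Ccl2 at -0.63 to Cxcl16 at 0.59.

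Among the ligands of CCR2, Ccl2 (monocyte chemoattractant protein 1) is the main signal that draws monocytes into tissue. It was at 464, 969 and 1477 normalized counts in control replicates 1 to 3 and at 439, 593 and 691 in E3–E12 diet replicates 1 to 3. Both higher values belonged to control litters, but control replicate 1 lay close to the lowest E3–E12 diet library, so the groups overlapped. The means were 970.0 ± 506.5 (SD, n = 3) in controls and 575 ± 127 (SD, n = 3) in E3–E12 diet mice. The log2 difference was -0.63 (SE 0.65, 95% interval -2.19 to 0.94), with an adjusted p of 0.999 in limma and a 2-sided exact permutation p of 0.3. The log2 difference was -1.08 without control replicate 1 and -0.25 without control replicate 3, the ends of the range over the 6 fits that each left out 1 library. Without control replicate 1 the values of Ccl2 no longer overlapped, as in 17.8% of all genes in that fit.

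Ccl7 (monocyte chemoattractant protein 3) lies next to Ccl2 and was far scarcer. It was at 76.4, 37.0 and 109 normalized counts in control mice and at 51.9, 64.2 and 38.7 in the libraries of E3–E12 diet mice. The lowest of all its values and the highest were both from control litters. The log2 difference was -0.41 (SE 0.64, 95% interval -1.95 to 1.12), with a 2-sided exact permutation p of 0.5. Single libraries decided its size. Without control replicate 2 the difference was -0.84 and the remaining values did not overlap, as in 14.4% of all genes in that fit. Without control replicate 3 the difference was -0.07.

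Ccl12 (monocyte chemoattractant protein 5), a rodent ligand of CCR2, was at 218, 190.2 and 914 normalized counts in control mice and at 179, 515 and 1117 in the libraries of E3–E12 diet mice. Replicate 3 was the highest library in each group. The means were 441 ± 410.5 and 604 ± 475 (SD, n = 3 each), the log2 difference was 0.48 (SE 0.96, 95% interval -1.83 to 2.79), and the 2-sided exact permutation p was 0.7. Without control replicate 2 the difference was 0.07, without control replicate 3 it was 1.20, and without E3–E12 diet replicate 3 it was -0.14. The 3 ligands of CCR2 thus had no shared direction: Ccl2 and Ccl7 were lower and Ccl12 higher on average in E3–E12 diet mice, each by less than its standard error.

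Ccl3 and Ccl4 (macrophage inflammatory proteins 1-alpha and 1-beta) are neighbouring genes read in opposite directions. Ccl3 was at 1030.05, 1270.4 and 3628 normalized counts in control mice and at 1247, 1295 and 3549 in the libraries of E3–E12 diet mice. In each group 1 library, replicate 3, stood well above the others, and the 2 sets of values were nearly alike. The means were 1976 ± 1436 and 2031 ± 1315 (SD, n = 3 each), and the log2 difference was 0.09 (SE 0.77, 95% interval -1.76 to 1.94), with a 2-sided exact permutation p of 0.9. The interval reaches from 0.295 to 3.85 as a fold of E3–E12 diet over control, so changes of a few fold in either direction were not detectable for even the most abundant member. The sign of the difference turned in 3 of the 6 fits that left out a library, to -0.11 without control replicate 2, and the range over those fits was -0.40 (without E3–E12 diet replicate 3) to 0.65 (without control replicate 3).

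Ccl4 was at 169, 288 and 823 normalized counts in control mice and at 99.0, 559 and 470.3 in the libraries of E3–E12 diet mice. Its lowest value was from E3–E12 diet replicate 1 and its highest from control replicate 3, which is also the library in which Ccl3 was highest. The log2 difference was -0.20 (SE 0.95, 95% interval -2.49 to 2.08), with a 2-sided exact permutation p of 0.9. Without control replicate 2 it was -0.33, and over the 6 fits that left out a library it ran from -0.71 (without control replicate 1) to 0.58 (without E3–E12 diet replicate 1).

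**Figure D3:**
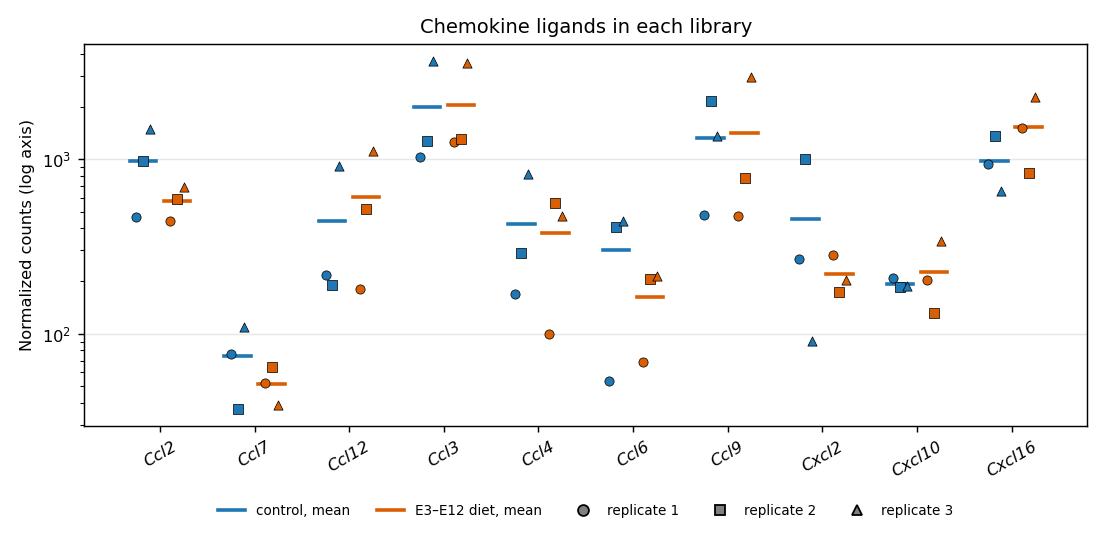
Normalized counts of the 10 members in each of the 6 libraries, on a log axis, with points coloured by group and shaped by replicate and lines at the group means. Control and E3–E12 diet points overlap in all 10 genes, and Ccl3 and Ccl12 have their 2 highest points in replicate 3 of each group.

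Ccl6 and Ccl9 are rodent ligands of CCR1 that myeloid cells make without stimulation. Ccl6 was at 53.6, 406 and 444 normalized counts in control mice and at 68.9, 206 and 213 in the libraries of E3–E12 diet mice. Replicate 1 was the lowest library in both groups by a wide margin, as it was for the summed microglia markers. The log2 difference was -0.56 (SE 1.01, 95% interval -2.98 to 1.85), with a 2-sided exact permutation p of 0.6. Leaving out control replicate 1 moved the difference to -1.55 and left no overlap between the remaining values, as in 17.8% of all genes. Leaving out control replicate 2 moved the difference to -0.10, control replicate 3 to -0.04 and E3–E12 diet replicate 1 to -0.03.

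Ccl9 was at 475, 2164 and 1346 normalized counts in control mice and at 470.1, 782 and 2965 in the libraries of E3–E12 diet mice. Again both replicate 1 libraries were lowest, and they were nearly equal. The means were 1328 ± 844 and 1406 ± 1360 (SD, n = 3 each), and the log2 difference was -0.12 (SE 0.94, 95% interval -2.37 to 2.14), with a 2-sided exact permutation p of 0.9. The sign depended on the library, and without control replicate 2 the difference was 0.36. It ran from -0.88 without E3–E12 diet replicate 3 to 0.45 without E3–E12 diet replicate 1. Ccr1, their receptor, was at 54.2, 197 and 88.4 normalized counts in control mice and at 43.1, 47.2 and 68.2 in the libraries of E3–E12 diet mice (log2 difference -0.91, SE 0.68, and -0.41 without control replicate 2). The groups of Ccr1 overlapped, and its limma adjusted p was 0.999. Of the exon sequence of Ccl9, 1.97% in windows of 50 bases was also present in other genes.

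Cxcl2 (macrophage inflammatory protein 2) recruits neutrophils and varied more than any other member, with an 11.0-fold span from the lowest to the highest library. It was at 269, 1001 and 91.0 normalized counts in control mice and at 281, 173 and 203 in the libraries of E3–E12 diet mice. The control group held both extremes, and the E3–E12 diet values lay between them. The means were 454 ± 482 and 219 ± 55.8 (SD, n = 3 each), and the log2 difference was -0.44 (SE 0.94, 95% interval -2.69 to 1.82), with a 2-sided exact permutation p of 0.8. Control replicate 2 carried the high value, and without it the difference was 0.45, while without control replicate 3, the low one, it was -1.27. Neutrophil markers were highest in the same library, with a sum of 3632 against 482 to 884 for the 8 markers, and lowest in control replicate 3, where Cxcl2 was lowest too. The part of neutrophil RNA in the Cxcl2 values was not tested. Of its exon sequence, 5.84% was shared with Cxcl3, a neighbouring ligand not analysed here.

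Cxcl10 (interferon-induced protein 10) was the steadiest member. It was at 207, 184 and 187 normalized counts in control mice and at 204, 131 and 338 in the libraries of E3–E12 diet mice, a span of 2.57-fold. The controls were within a narrow band, and the E3–E12 diet libraries fell above, within and below it. The means were 193 ± 12.5 and 224 ± 105 (SD, n = 3 each), and the log2 difference was 0.11 (SE 0.60, 95% interval -1.31 to 1.54), with a 2-sided exact permutation p of 0.8. It was -0.23 without E3–E12 diet replicate 3 and 0.45 without E3–E12 diet replicate 2. Cxcl10 shares 133 exon bases with Art3, which is read from the other strand and was at 109 to 129 normalized counts in control mice and 114 to 216 in the libraries of E3–E12 diet mice. Whether reads were counted by strand is not given in the sources used here. The effect of this overlap on the Cxcl10 counts, in either direction, was not tested.

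Cxcl16, the membrane-bound ligand of CXCR6 and a scavenger receptor for oxidised lipoprotein, was at 933, 1348 and 657 normalized counts in control mice and at 1499, 829.5 and 2280.0 in the libraries of E3–E12 diet mice. The 2 highest libraries were E3–E12 diet replicates 3 and 1, and E3–E12 diet replicate 2 fell below 2 of the controls. The means were 979 ± 348 and 1536 ± 726 (SD, n = 3 each). The log2 difference of 0.59 (SE 0.65, 95% interval -0.97 to 2.15) was the largest above 0 among the members, with an adjusted p of 0.999 in limma and a 2-sided exact permutation p of 0.4. It stayed above 0 in all 6 fits that left out a library (0.25 without E3–E12 diet replicate 3 to 0.98 without E3–E12 diet replicate 2). The values did not overlap without E3–E12 diet replicate 2, as in 13.1% of all genes in that fit. Cxcl16 shares 552 exon bases, and 16.9% of its 50-base windows, with Zmynd15 on the other strand. Zmynd15 was at 62.6 to 153 normalized counts in control mice and 151 to 333 in the libraries of E3–E12 diet mice. The proteases that shed the Cxcl16 protein, Adam10 and Adam17, had log2 differences of -0.97 (SE 0.70) and 0.05 (SE 0.58). That of Adam10 was -0.49 without control replicate 2, and leaving out E3–E12 diet replicate 1 gave -0.62. In all, 0 of 7 genes of ligand processing were called or had an unadjusted p under 0.05.

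Libraries of the same group also differed from each other in the members. A library was 1 pooled litter, so litter and the handling of that pool cannot be told apart. For each member the mean of its 6 log2 values was taken away, so that a deviation says how far a library lay from the average of that gene. Control replicate 3 and E3–E12 diet replicate 3 were each above the mean for 7 of 10 members, with median deviations of 0.98 and 0.66. Control replicate 1 and E3–E12 diet replicate 1 were each below it for 7 of 10, with median deviations of -0.67 and -0.58. Control replicate 2 and E3–E12 diet replicate 2 lay between, at 0.05 and -0.33. Over all genes tested the median deviations of the 6 libraries were within -0.29 and 0.15. Replicate numbers were not shown to pair litters across the groups.

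The low values in replicate 1 were mostly those of CC ligands. Ccl2, Ccl3, Ccl4, Ccl6, Ccl9 and Ccl12 were below their means in replicate 1 of both groups, by 0.48 to 1.69 on the log2 scale. The exception among CC ligands was Ccl7, at 0.38 above its mean in control replicate 1. Cxcl2, Cxcl10 and Cxcl16 were not low in replicate 1 of both groups, with deviations of 0.10, 0.05 and -0.30 in control replicate 1 and 0.17, 0.02 and 0.38 in E3–E12 diet replicate 1. The high values in E3–E12 diet replicate 3 were not confined to CC ligands. Cxcl10 and Cxcl16 deviated there by 0.75 and 0.98, and Ccl2, Ccl7 and Cxcl2 by -0.02, -0.58 and -0.30. Cxcl2 and Cxcl16 were at their lowest in control replicate 3, in which 5 of the 7 CC ligands were at their highest. Pearson correlations over the 6 libraries, as a description in which all genes share the same libraries and scaling, ran from 0.91 between Ccl2 and Ccl6 to -0.87 between Ccl7 and Cxcl16.

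**Figure D4:**
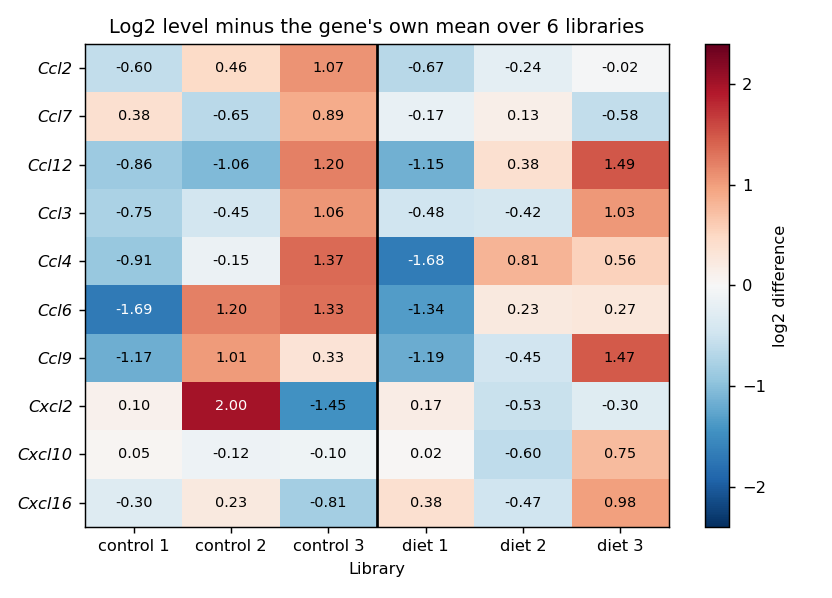
Deviation of each member from the mean of its own 6 log2 values, in log2 units, for the 6 libraries (columns) and 10 members (rows), red above the mean and blue below. Replicate 1 of both groups is below the mean for 7 of 10 members and replicate 3 of both groups above it for 7 of 10.

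The microglia markers moved with part of this pattern. Their sum was lowest in replicate 1 of both groups, the libraries in which the 6 CC ligands were low. Set against that sum, the members together came to 36.7, 14.8 and 37.2 normalized counts per 1000 marker counts in control mice and to 43.3, 20.8 and 36.4 in the libraries of E3–E12 diet mice. On this scale the replicate 1 libraries were no longer low, and replicate 2 was the lowest of each group. The values overlapped between the groups for 10 of 10 members, and 0 were called when all genes were rescaled in this way, with log2 differences of -0.36 for Ccl2 and 0.86 for Cxcl16. The 12 microglia markers had a median log2 difference of -0.28, with 12 of 12 below 0 as deposited and 9 or 10 of 12 with quantile normalization or library total scaling, and 0 were called or had an unadjusted p under 0.05. The part of microglial RNA content in the chemokine values was not tested beyond this rescaling.

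Genes that respond to handling were set beside the members as well. The 17 genes of the early dissociation response summed to 121373, 386632 and 214969 normalized counts in control mice and to 101229, 238012 and 177264 in the libraries of E3–E12 diet mice. Zfp36, which destabilises chemokine and Tnf mRNA, had the smallest p among them, at 15393, 23123 and 36831 in control mice and 7034, 15108 and 6822 in the libraries of E3–E12 diet mice. All its E3–E12 diet values lay below all its control values (log2 difference -1.39, SE 0.65, limma adjusted p = 0.999). It was the 1 gene of the 17 without overlap, a share close to the 5.90% over all genes. The study listed Zfp36 as lower with DESeq2. Of the 17 genes, 6 were higher and 11 lower on average, 0 were called and the median log2 difference was -0.33. The part of dissociation in the levels of the members was not tested.

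Genes upstream of the ligands were set beside them too. Of 33 cytokines, transcription factors and feedback genes that drive or damp chemokine genes, 32 were in the table and 31 were tested, with 19 higher and 12 lower on average in E3–E12 diet mice, 0 called and a median log2 difference of 0.07 (21 and 10 with library total scaling). Tnf, a cytokine that signals through NF-kB and induces chemokine genes, was at 1083, 1012 and 825 normalized counts in control mice and at 2342, 1789 and 4982 in the libraries of E3–E12 diet mice. All 3 E3–E12 diet values lay above all 3 control values, with a log2 difference of 1.51 (SE 0.62, limma unadjusted p 0.0482, adjusted p 0.999). Nfkbia, the NF-kB inhibitor that NF-kB itself induces, was at 2392, 1519 and 2284 in control mice and at 3734, 4548 and 5034 in the libraries of E3–E12 diet mice, again without overlap (log2 difference 1.12, SE 0.55, limma adjusted p 0.999). These 2 were the genes without overlap among the 31 tested, a share close to the 5.90% over all genes. Neither difference passed the adjustment over all genes here, whereas the study listed both genes as higher with DESeq2.

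Other genes of the same signals overlapped between diets. Tnfaip3, a further feedback inhibitor, had a log2 difference of 0.38 (SE 0.56, and 0.19 without E3–E12 diet replicate 3 to 0.59 without control replicate 2) and Il1b, the cytokine that acts beside Tnf, of 0.02 (SE 0.59). Irf7, the amplifier of type I interferon, was low throughout, at 21.2, 35.9 and 72.1 normalized counts in control mice and 62.5, 131 and 191 in the libraries of E3–E12 diet mice (log2 difference 1.58, SE 0.74). Ifnb1, the gene of interferon beta, was listed at 0 in 5 of the 6 libraries. Irf7 and Tnf were highest in E3–E12 diet replicate 3, as were 4 members, Ccl9, Ccl12, Cxcl10 and Cxcl16. A link between these values was not tested.

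**Figure D5:**
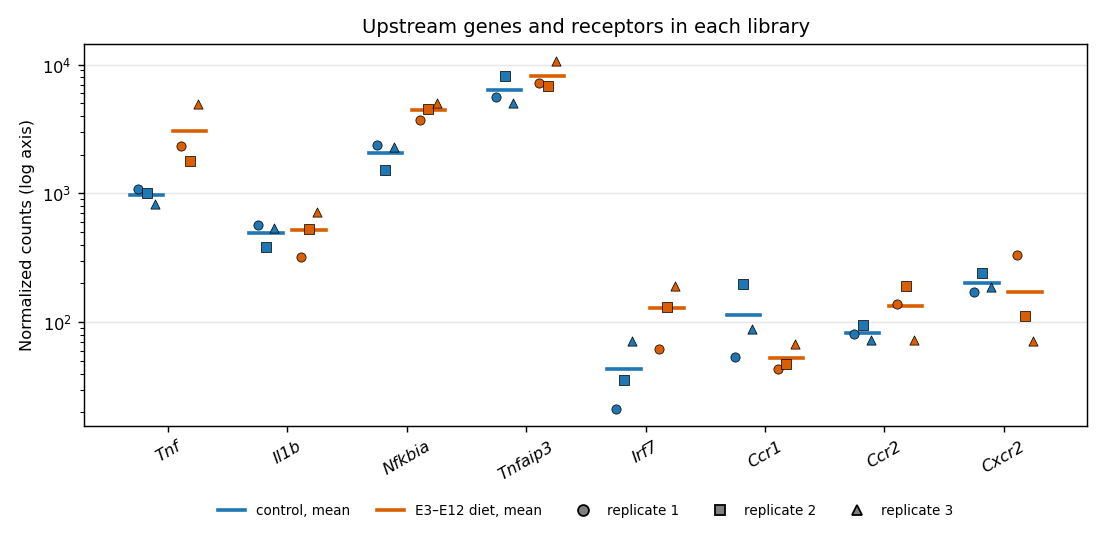
Normalized counts of named inducers and receptors in the 6 libraries, on a log axis, with points coloured by group and shaped by replicate and lines at the group means. The E3–E12 diet points of Tnf and Nfkbia lie above all control points, at 1789 to 4982 and 3734 to 5034 normalized counts, and the points of Ccr2 overlap.

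Chemokine receptors were read from the same libraries. Of the 23 receptors listed, 15 passed the filter and were tested, with 6 higher and 9 lower on average (8 and 7 with library total scaling), 0 called and 0 at an unadjusted p under 0.05. Ccr2, which marks monocytes and binds Ccl2, Ccl7 and Ccl12, was at 80.5, 95.1 and 72.2 normalized counts in control mice and at 139, 190.0 and 72.9 in the libraries of E3–E12 diet mice (log2 difference 0.60, SE 0.61). The difference was 0.30 without E3–E12 diet replicate 2 and 0.98 without E3–E12 diet replicate 3. Of the 3 monocyte markers tested, Ccr2 was the 1 higher on average and 2 were lower (median log2 difference -0.58). Cxcr2, the neutrophil receptor of Cxcl2, was at 173, 241 and 187 in control mice and at 335, 112 and 71.0 in the libraries of E3–E12 diet mice (log2 difference -0.51, SE 0.73). Without E3–E12 diet replicate 3 its difference was -0.03, and without E3–E12 diet replicate 1 it was -1.14.

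Cxcr3, the receptor of Cxcl10, had the smallest p of the list, 0.0720 unadjusted and 0.999 adjusted in limma. It was at 31.8, 336 and 18.9 normalized counts in control mice and at 17.0, 13.5 and 0 in the libraries of E3–E12 diet mice, and its high value was in control replicate 2, which also had the most T and NK cell marker counts. The part of T and NK cell RNA in the Cxcr3 values was not tested. The log2 difference of Cxcr3 was -3.24 (SE 1.52). It was -2.00 without control replicate 2, and leaving out E3–E12 diet replicate 3 gave -1.90. Cxcr6, the receptor of Cxcl16, did not pass the filter, at 1.89 to 13.9 normalized counts. The decoy receptors Ackr1 and Ackr2, which bind CC ligands, were listed at 0 in 3 and 2 of the 6 libraries.

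Among the other chemokine ligands 0 were called as well. Of 28 listed, 24 were in the table and 19 were tested, 14 of them higher and 5 lower on average in E3–E12 diet mice, with a median log2 difference of 0.39 (10 higher, 9 lower and 0.03 with quantile normalization). Of all genes tested, 9797 were higher and 8210 lower. Astrocyte markers were higher on average in 7 of 7 cases (median log2 difference 0.93, 6 of 7 with quantile normalization). Endothelial markers were higher in 6 of 8 (median 1.71), with 0 called in either list. Both marker sums were lowest in control replicate 2, at 1738 normalized counts for astrocytes and 4550 for endothelium. The remaining controls, at 9132 and 5580 for astrocytes, lay within the diet range of 4723 to 9725. For endothelium they were at 13911 and 14238, within a diet range of 9103 to 15072. How far these medians rest on control replicate 2 was not tested. The part of RNA of these cells in the ligand values was not tested. Whether the other ligands differed from the 10 members was not tested. An unadjusted p under 0.05 was found for 2 of them. Cxcl1, the ligand that shares CXCR2 with Cxcl2, was at 21.8, 1.96 and 8.75 normalized counts in control mice and at 36.1, 43.9 and 28.4 in the libraries of E3–E12 diet mice (log2 difference 2.07, SE 0.85, and 1.29 without control replicate 2, limma adjusted p 0.999). Pf4, a platelet and macrophage ligand, was at 30.5, 36.5 and 173 in control mice and at 2.25, 20.3 and 12.3 in the libraries of E3–E12 diet mice (log2 difference -2.60, SE 1.02, limma adjusted p 0.999). Both were without overlap between the groups, as were 5.90% of all genes, and both were low. The 10 members were thus not the ligands with the smallest p.

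By correlation with the mean log2 level of the 10 members, the 5 most alike were searched for among the 10139 genes whose mean reached 100 normalized counts and that were above 0 in every library. They were Spata13 (Pearson r 0.996, Spearman rho 0.886), 4833439L19Rik (0.992 and 1), Vdac2 (0.989 and 0.943), Gpr108 (0.977 and 0.943) and Lpcat2 (0.977 and 0.943), each over 6 libraries. Spata13 was at 1501, 2792 and 3629 normalized counts in control mice and at 1503, 2166 and 3487 in the libraries of E3–E12 diet mice. Replicate 1 was its lowest and replicate 3 its highest library in both groups, as for the mean level of the members by which it was chosen. Not every member followed that order, and Cxcl2 was at its lowest in control replicate 3. With 6 libraries and 10139 genes searched, correlations of this size describe the ranking only.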

How the data were processed

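RNA-seq of microglia from 3 control and 3 E3–E12 diet libraries was read from 1 table of normalized counts that the authors deposited. The submitters' processing notes name FastQC, STAR, featureCounts and DESeq2 and the build GRCm38, with tool versions not given in the sources used here. The deposited values are a signal, gene counts that the authors normalized, and whole reads could not be recovered from them: 61.0 to 76.4% of values under 12 in a library lay within 0.1 of a whole multiple of the best single step. Whether the values carry a factor that differs by gene was not tested. The name of the table mentions surrogate variables, whether these were removed from the values is not stated, the depth in reads is unknown, and no count test was run. Labels and study methods differ on the kit, the read length and the isolation of cells.

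Values were analysed as log2(normalized count + 1) with limma 3.58.1 in R 4.3.3 for the 18007 genes whose mean reached 10, with no covariates. Calls were made at a Benjamini-Hochberg adjusted p under 0.1. Fold changes on this scale understate those of low genes. Single genes were also compared by 2-sided exact permutation tests. The script was tested on simulated data. Of 26789 Ensembl identifiers 26507 had a symbol in GENCODE M21. The members, the lists and the rule for named genes were chosen with earlier results of these data known. Named genes were all members, the receptors they bind, chosen inducers and proteases, and in each pathway list the genes with an unadjusted p under 0.05 or, with none, the smallest p. Ccl5, Xcr1 and Ackr3 fall outside that rule and were named after their values were seen, as was Ifnb1. Some genes of the lists are not reported here. In all, 17 alternatives were tried.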

Additional observations from a re-analysis of the deposited data

How the results depend on the processing

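In 17 alternatives 0 of 10 members were called, with a smallest adjusted p (limma, Benjamini-Hochberg) of 0.852. Over all genes the number called was 0, except that 1 gene, not a member, was called with a minimum mean of 50. The number of genes at an unadjusted p under 0.05 was 327 and ran from 135, with values scaled to the microglia markers, to 1423, with a residual component as covariate. Library total scaling moved the median log2 difference of all genes from 0.09 to 0.20 and scaling to the microglia markers to 0.33. The scaling to microglia markers was chosen after seeing the data. Taking the replicate number as a block gave 0 called genes and 468 at an unadjusted p under 0.05. That block raised the standard errors of Ccl7 and Cxcl16 (0.65 to 0.72) and lowered those of the other members, for Ccl6 from 1.01 to 0.61. Deviations of same-numbered libraries correlated at 0.26, 0.03 and 0.14, and those of differently numbered libraries at -0.25 to 0.087. For each E3–E12 diet replicate the highest correlation was with the control of the same number. The cause of this was not tested, and the numbers were not taken to pair litters.

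The median log2 difference of the members ran from -0.41 to 0.24 when 1 library was left out. In those fits the values did not overlap for 0 to 2 of 10 members, against 12.6 to 17.8% of all genes (17.8% without control replicate 1). Over the same 6 fits the sign turned for Ccl3 (-0.40 to 0.65), Ccl4 (-0.71 to 0.58), Ccl9 (-0.88 to 0.45), Ccl12 (-0.14 to 1.20), Cxcl2 (-1.27 to 0.45) and Cxcl10 (-0.23 to 0.45), and among other genes for Ackr2 (-1.45 to 1.58), Il1b (-0.24 to 0.34) and Adam17 (-0.22 to 0.30). It also turned for Ccl4 (0.057) and Ccl9 (0.15) with scaling to the microglia markers, for Ccl9 with library total scaling (0.0051), for Ackr2 with a pseudocount of 10 (-0.030) and quantile normalization (-0.75), and for Il1b with quantile normalization (-0.016). The causes were not tested. Ccl2, Ccl6, Ccl7 and Cxcl16 kept their sign in every alternative. The depth in reads is unknown, and with 3 litters a group the 95% interval of even the steadiest member, Cxcl10, reached a 2.92-fold higher level.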

Other observations

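Among chemokine ligands and receptors outside the 10 members, groups without overlap were found for 3 of 19 ligands and 3 of 15 receptors tested, against 5.90% of all genes, and 0 of them were called. Beside Cxcl1 and Pf4, the ligand was Ccl5, named here after its values were seen, at 12.3, 1.69 and 18.5 normalized counts in control mice and 19.0, 19.4 and 153 in the libraries of E3–E12 diet mice (log2 difference 2.17, SE 1.14). The receptors were Cxcr3 and, also named after their values were seen, Xcr1 and Ackr3. Xcr1, the receptor of XCL1, was at 57.8 to 98.2 normalized counts in control mice and 106 to 262 in the libraries of E3–E12 diet mice. Ackr3, a scavenger of CXCL12, was at 123 to 205 normalized counts in control mice and 295 to 845 in the libraries of E3–E12 diet mice (log2 difference 1.38, SE 0.65). E3–E12 diet replicate 1 was the highest library for both, and also had the most choroid plexus marker counts (40482). The part of other cells in these values was not tested.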
